A study of Mus musculus with 38 samples.

Results

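The genes of the cytosolic ribosomal proteins were followed in sorted mouse microglia. A gene was a member when the count table listed it as protein coding with a symbol of the Rpl, Rps, Rplp or Rpsa form, without the Rps6 kinases and Rps19bp1. This rule gave 92 of the 53801 genes in the table: 31 proteins of the small (40S) subunit, 46 of the large (60S) subunit, 8 like copies (genes named after a parent protein, such as Rps27l) and 7 genes that carry a pseudogene name but are listed as protein coding. They lay on 20 chromosomes, 4 of them on X. The rule used no measured value. Of the 92, 85 passed a filter on low counts and were tested.

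The 38 libraries came from C57BL/6J mice aged 3 months that all carried a hemizygous BAC transgene of human TREM2 (huTrem2 BACtg HEMI), a receptor of microglia, and a homozygous human transferrin receptor knock-in (hTfR KI HOM). Mouse Trem2 was also present in all groups, so the transgene is an addition to the mouse gene. Action of the antibody on the mouse receptor was not tested here. DNL919, a TREM2 antibody, and ATV:DNP02, its control antibody, were given once at 10 mg/kg and the other mice received Vehicle. Vehicle (6 libraries) and ATV:DNP02 (8) were collected on day 1 and DNL919 on days 1, 4 and 7 (8 each), so the later days were compared with controls of day 1. Every group was present in each of the 4 takedown batches. All mice of batches 1 and 2 were female and all of batches 3 and 4 male, and therefore the effect of sex cannot be told apart from that of these pairs of batches.

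A ribosome joins 1 copy of most of these proteins to ribosomal RNA in each subunit, and a stalk of acidic proteins on the 60S subunit recruits elongation factors. The mRNAs begin with a run of pyrimidines, the 5′ terminal oligopyrimidine (TOP) tract, through which mTORC1 signalling controls their translation. Cells that enlarge or prepare to divide make more ribosomes. Free Rpl5 and Rpl11 also bind Mdm2, which links failed ribosome assembly to p53. Many mammalian ribosomal protein genes have left processed copies in the genome, so their reads are hard to assign.

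Promoter stretches are shown for 5 members that the results below turn on, from 30 bases before the annotated start to 20 after it (RefSeq, GRCm38.p6). Capitals mark the longest pyrimidine run that opens with C, holds at least 5 bases and begins within 10 bases of the start. All 5 stretches hold such a run, but other members named below lack it, among them Rps16, Rpsa, Rplp0 and Rpl5. Rpl35a has further annotated starts, not shown, without such a run. Rps6 is the 40S protein phosphorylated by the S6 kinases, Rpl35a and Rps2 are proteins of the 60S and 40S subunits, and Rps27rt is a copy of the 40S protein gene Rps27.

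Rps6, minus strand of chr4:86857348-86857397: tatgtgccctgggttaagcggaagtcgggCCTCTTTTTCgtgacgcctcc

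Rpl35a, plus strand of chr16:33056452-33056501: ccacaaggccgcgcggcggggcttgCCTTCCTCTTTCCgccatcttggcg

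Rps2, plus strand of chr17:24720033-24720082: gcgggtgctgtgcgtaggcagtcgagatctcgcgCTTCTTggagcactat

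Rps27, minus strand of chr3:90213629-90213678: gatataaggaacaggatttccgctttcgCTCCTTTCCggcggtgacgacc

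Rps27rt, minus strand of chr9:114982720-114982769: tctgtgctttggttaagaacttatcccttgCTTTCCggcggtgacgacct

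Of the members, 65 had a promoter in the RefSeq table. A pyrimidine run of this kind lay near the start in 40 of them (61.5%), against 34.4% of the 27025 genes in the table. The annotated start base was itself a C followed by at least 4 pyrimidines, alone or inside a longer run, in 14 members (21.5%) and in 3.01% of all genes. The letters TTCCGG, on either strand within 250 bases before and 50 after the start, were found in 36 members (55.4%) and in 16.7% of all genes. Median log2 fold changes on DNL919 day 1 against ATV:DNP02 were 1.41 for these 14 members and 1.28 for the other 48 tested members in the table.

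The ribosomal protein genes took a larger share of all counts after DNL919 on each day. The share ranged from 1.32 to 1.58% in Vehicle (median 1.43%), from 1.26 to 1.63% in ATV:DNP02 (1.55%), from 1.77 to 3.65% on DNL919 day 1 (3.15%), from 1.74 to 2.49% on day 4 (2.11%) and from 1.63 to 2.50% on day 7 (2.13%). On this measure no DNL919 library overlapped a control library, although the lowest of day 7 (1.634%) lay just above the highest of ATV:DNP02 (1.627%). The separation did not hold with other totals. As a share of protein-coding counts, the lowest libraries of day 1 (1.83%) and day 7 (1.70%) lay under the highest of ATV:DNP02 (1.86%). Without mitochondrial counts, the lowest of day 7 (1.65%) lay under the highest of ATV:DNP02 (1.69%). Day 4 and day 7 overlapped each other throughout. On day 1 replicate 5 stood apart at 1.77% while the other 7 libraries held 2.58% or more.

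Within batches, mean shares in ATV:DNP02 and on DNL919 day 1 were 1.41 and 3.36% in batch 1, 1.61 and 3.16% in batch 2, 1.53 and 2.66% in batch 3, and 1.58 and 2.91% in batch 4. The higher share on day 1 was thus seen in 4 of 4 batches. Other properties of the libraries moved with the groups. Depth was 1.65 to 3.48 M counts in ATV:DNP02 and 2.91 to 6.42 M on DNL919 day 1, and noncoding transcripts took 4.71 to 8.68% and 2.30 to 5.23% of the counts. Their part in the results was tested only as covariates, given where they changed a call. In bulk RNA, a change in the cells sampled and a change in RNA per cell cannot be told apart.

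**Figure D1:**
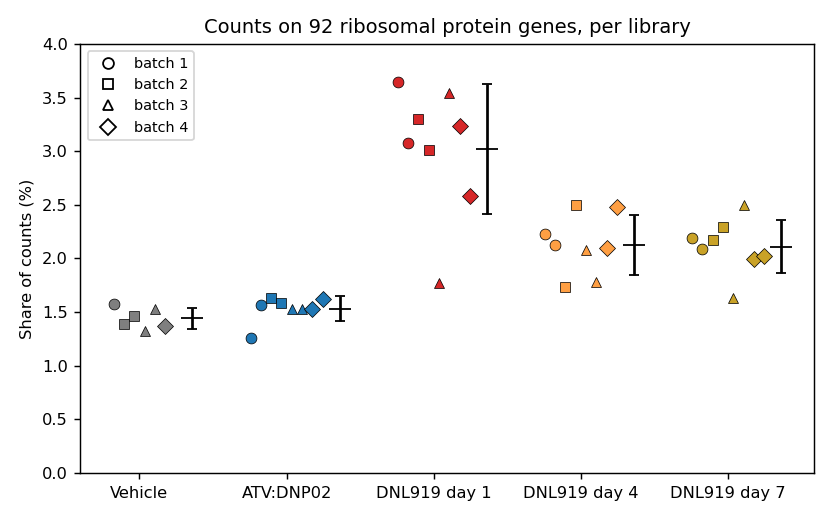
Share of all counts (%) on the 92 ribosomal protein genes in each of the 38 libraries, by group; the marker shape gives the batch, and the bar beside each group its mean ± SD. DNL919 day 1 lies highest (1.77 to 3.65%) with replicate 5 of batch 3 apart from the rest, and days 4 and 7 lie between it and the controls.

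On DNL919 day 1 nearly the whole set rose against ATV:DNP02. Of 85 tested members 80 rose and 2 fell at an adjusted p under 0.05, where 20.8% of all 11189 tested genes rose and 15.0% fell. The median log2 fold change over the members was 1.24 (a fold of 2.37), against 0.01 over all genes. Both subunits moved alike in size, with medians of 1.28 over 31 proteins of the 40S subunit and 1.27 over 45 of the 60S subunit. In 40 members every DNL919 library lay above every ATV:DNP02 library, which held for 5.55% of all tested genes.

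The labelled cell type was checked beside these values. The summed level of 12 microglia markers was 31601 to 42606 CPM on DNL919 day 1 and 32054 to 51928 CPM in ATV:DNP02. On day 1 against ATV:DNP02, 5 of these 12 were called lower and 1 higher (median log2 fold change -0.27). Of 7 markers of border-associated macrophages 2 were called lower and 0 higher (median -1.10), with summed levels of 7.59 to 472 CPM on day 1 and 101 to 1076 CPM in ATV:DNP02. The 8 astrocyte markers summed to 117 to 245 CPM on day 1 and 194 to 316 CPM in ATV:DNP02. The part of these markers in the results was not tested. The red cell markers were at 0 in the DNL919 day 1 and Vehicle libraries. Monocyte and neutrophil markers were high in DNL919 day 7 replicate 7 (36756 CPM summed over 7 genes) and DNL919 day 4 replicate 6 (6491 CPM), and at most 585 CPM elsewhere.

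Of the 40S proteins, Rps6 rose most. It measured 5.70, 9.14 and 17.1 CPM (lowest, median and highest library) in Vehicle, 4.10, 12.7 and 25.3 CPM in ATV:DNP02 and 28.2, 95.3 and 164 CPM on DNL919 day 1. The day 1 libraries lay above both control groups without overlap. The log2 fold change against ATV:DNP02 was 2.79 ± 0.34 (SE; adjusted p = 7.53e-09), a fold of 6.91. The pseudogene row of Rps6 held 3905 counts beside 4816 on Rps6 itself. In alternative settings of the fit the log2 fold change of Rps6 ran from 1.31 to 2.97.

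Rps16, whose tail reaches towards the decoding centre, had medians of 29.0 CPM in ATV:DNP02 and 166 CPM on day 1 (2.40 ± 0.23, adjusted p = 3.9e-11). Rps2, a protein at the mRNA entry, had medians of 68.0 and 321 CPM (2.11 ± 0.18, adjusted p = 9.32e-13). Both rose without overlap of the groups. Pseudogene rows held 4423 counts beside 7978 on Rps16 and 12965 beside 17439 on Rps2. Alternative settings of the fit gave 1.74 to 2.64 for Rps16 and 1.44 to 2.69 for Rps2. Rpsa, the 40S protein also known as the laminin receptor, measured 67.1, 83.1 and 119 CPM in ATV:DNP02 and 171, 375 and 461 CPM on day 1, a log2 fold change of 2.01 ± 0.17 (adjusted p = 9.78e-13). Rps27a is made as a fusion of ubiquitin with a 40S protein. It rose by 1.76 ± 0.17 on the log2 scale (adjusted p = 2.49e-11), from a median of 103 to 376 CPM, again without overlap.

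The largest rises among 60S proteins were those of Rpl29 (2.29 ± 0.26, adjusted p = 1.3e-09) and Rpl35a (2.20 ± 0.22, adjusted p = 4.98e-11). Rpl29 went from 6.45 to 12.6 CPM in ATV:DNP02 to 28.5 to 70.0 CPM on day 1, and Rpl35a from 22.9 to 50.2 CPM to 72.3 to 238 CPM. In both the groups did not overlap. Pseudogene rows named after the gene held 7058 counts beside 8684 on Rpl35a, and 0 beside 2609 on Rpl29. Copies under other names are not in these counts. Of the 50-base words of the Rpl29 transcript 47.9% also occur in another gene, and 40.6% in Gm6344. Alternative settings of the fit gave 1.39 to 2.38 for Rpl35a and 1.88 to 2.56 for Rpl29.

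All 3 stalk proteins rose. Rplp0, the base of the stalk, measured 258, 350 and 370.0 CPM in ATV:DNP02 and 514, 1056 and 1162 CPM on day 1 (1.51 ± 0.14, adjusted p = 1.65e-11). Its partners Rplp2 (1.50 ± 0.16) and Rplp1 (1.05 ± 0.17) rose with adjusted p of 1.71e-10 and 2.14e-06. The groups overlapped for Rplp1 only among these 3.

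The pair that binds 5S ribosomal RNA differed in size. Rpl5 measured 43.7, 69.8 and 88.0 CPM in ATV:DNP02 and 123, 246 and 292 CPM on day 1, a log2 fold change of 1.72 ± 0.17 (adjusted p = 8.46e-11). Rpl11 measured 232, 352 and 375 CPM and 228, 598 and 697 CPM, a change of 0.65 ± 0.18 (adjusted p = 0.00331). The Rpl11 groups overlapped through DNL919 day 1 replicate 5, the lowest library, and the difference between both genes was not tested.

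**Figure D2:**
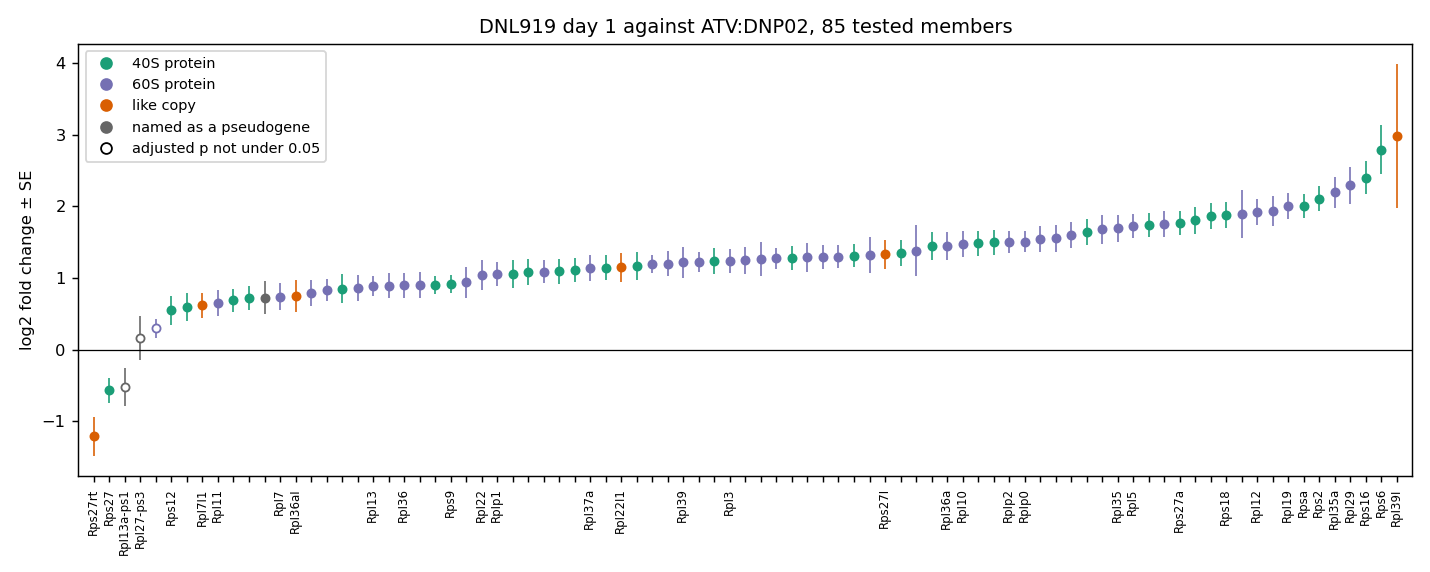
Log2 fold change ± SE of the 85 tested members on DNL919 day 1 against ATV:DNP02, in order of size and coloured by class, with the names of the members singled out in the text on the axis; open points did not pass an adjusted p of 0.05. Values run from -1.21 (Rps27rt) to 2.98 (Rpl39l, with the widest error), and 80 members rose.

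At the lower end, 3 members did not pass the test on day 1, among them Rpl27-ps3 (0.16 ± 0.31, adjusted p = 0.726) and Rpl13a-ps1 (-0.52 ± 0.27, adjusted p = 0.125). The smallest called rise was that of Rps12, a 40S protein (0.55 ± 0.20, adjusted p = 0.0273). With the counts of its pseudogene rows added it measured 0.11 (adjusted p = 0.754), and leaving out any 1 of 5 libraries also ended the call (ATV:DNP02 replicates 1 and 7, DNL919 day 1 replicates 1, 6 and 7; 0.41 to 0.52).

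Rps27 and its copy Rps27rt fell on DNL919 day 1 while the related gene Rps27l rose. Rps27 encodes a 40S protein with a zinc finger, Rps27rt is an intronless copy with 1 exon, and Rps27l is a separate gene that in human cells is a p53 target. The coding sequence of Rps27 and that of Rps27l are shown because they bear on how far reads of the genes can be told apart (GENCODE M21, GRCm38). Rps27rt (minus strand of chr9:114982453-114982707) has the same 255 bases as Rps27, with 0 differences, so it is not printed again. Capitals mark the 61 bases at which Rps27l differs from Rps27 (76.1% identity).

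Rps27, minus strand of chr3:90212725-90213615, 4 exons: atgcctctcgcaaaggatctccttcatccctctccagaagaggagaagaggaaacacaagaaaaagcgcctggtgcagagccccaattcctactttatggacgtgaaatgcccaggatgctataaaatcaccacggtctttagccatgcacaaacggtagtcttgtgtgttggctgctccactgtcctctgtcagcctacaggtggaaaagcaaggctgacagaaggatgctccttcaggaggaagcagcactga

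Rps27l, plus strand of chr9:66946175-66949357, 4 exons: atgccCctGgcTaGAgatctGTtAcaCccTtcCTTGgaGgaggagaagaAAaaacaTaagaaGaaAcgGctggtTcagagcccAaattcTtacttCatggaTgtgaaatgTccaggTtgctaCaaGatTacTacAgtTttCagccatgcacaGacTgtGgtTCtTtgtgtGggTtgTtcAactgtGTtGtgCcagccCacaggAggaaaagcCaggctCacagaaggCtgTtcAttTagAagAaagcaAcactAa

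Rps27 measured 450.4, 614 and 684 CPM in Vehicle, 391, 671 and 796 CPM in ATV:DNP02 and 214, 436 and 650.5 CPM on DNL919 day 1. It fell by 0.57 ± 0.18 on the log2 scale against ATV:DNP02 (adjusted p = 0.00953), with overlapping groups. On day 4 it stood at 632, 898 and 1348 CPM, above day 1 by 1.17 ± 0.17 (adjusted p = 8.9e-07).

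Rps27rt measured 86.1, 238 and 277 CPM in ATV:DNP02 and 35.7, 89.0 and 166 CPM on day 1, a fall of 1.21 ± 0.27 (adjusted p = 0.000434). On day 4 its 8 libraries (175 to 565 CPM) all lay above those of day 1, a log2 difference of 1.85 ± 0.27 (adjusted p = 5.52e-07). The reads of Rps27 and Rps27rt share most of their sequence: 91.1% of the 50-base words in the Rps27rt transcript also occur in that of Rps27. Counted together, a choice made after seeing the data, they measured 478, 896 and 1073 CPM in ATV:DNP02 and 249.7, 525 and 817 CPM on day 1 (-0.70, adjusted p = 0.00302).

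Rps27l rose instead. It measured 185, 344 and 391 CPM in ATV:DNP02 and 328, 886 and 1328 CPM on DNL919 day 1, a log2 fold change of 1.33 ± 0.20 (adjusted p = 7.63e-07). Only day 1 replicate 5 (the library at 328 CPM) overlapped the controls. Of the counts on Rps27 and Rps27l together, Rps27l took 27.7 to 37.5% in ATV:DNP02, 51.4 to 69.0% on day 1 and 23.7 to 32.9% on day 4. The day 1 share did not overlap that of any other group.

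The falls of Rps27 and Rps27rt were lost in a fit with a covariate. With the noncoding share of each library in the fit they measured -0.25 and -0.28 (adjusted p = 0.532 and 0.634), and with log2 library size -0.08 and -0.23 (adjusted p = 0.813 and 0.591). In the same fits 75 and 79 members rose on day 1, and 1228 and 1729 of all 11189 tested genes rose.

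**Figure D3:**
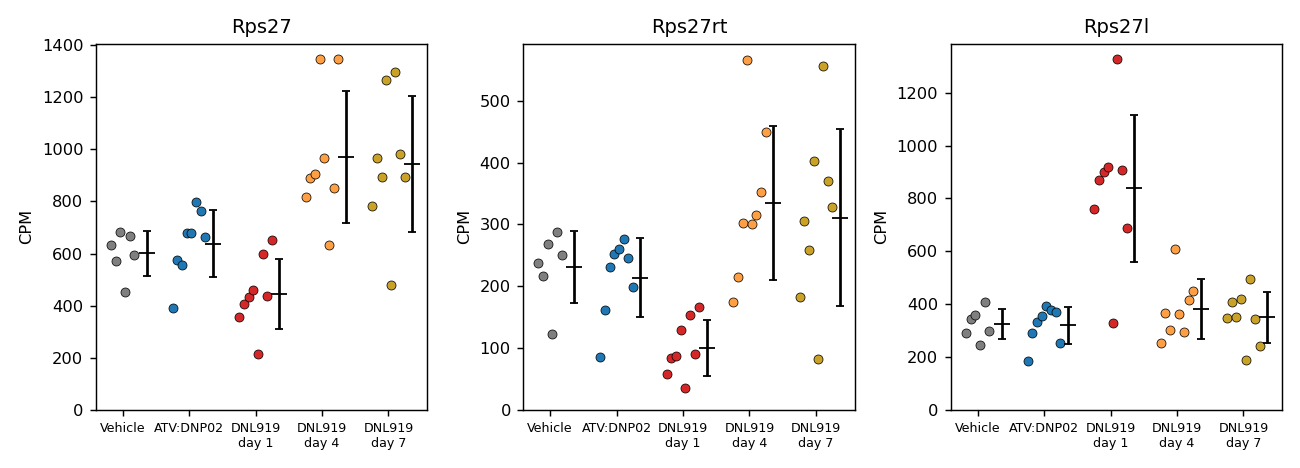
CPM of Rps27, Rps27rt and Rps27l in each library by group, with the mean ± SD beside each group. On DNL919 day 1 Rps27 and Rps27rt lie low (medians 436 and 89.0 CPM) while Rps27l lies high (886 CPM), and on days 4 and 7 Rps27l is back near the controls.

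The other tested like copies were called higher on day 1, as were their parents. Rpl22l1 and Rpl22, a pair of 60S paralogues in which Rpl22 represses Rpl22l1 in mice, rose by 1.15 ± 0.20 and 1.04 ± 0.21 (adjusted p = 8.49e-06 and 7.54e-05). Rpl36al rose by 0.75 ± 0.23 (adjusted p = 0.00783) and its parent Rpl36a by 1.45 ± 0.20 (8.13e-08). For Rpl7l1 the rise was 0.62 ± 0.17 (adjusted p = 0.00416) and for Rpl7 0.74 ± 0.18 (0.00125). Differences within these pairs were not tested. Rpl7l1 lost its call with either covariate (adjusted p = 0.795 and 0.139).

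Rpl39l, a copy of Rpl39 best known from testis, had the largest log2 fold change (2.98 ± 1.01, adjusted p = 0.0177) at the lowest counts. It measured 0 to 14.1 CPM in ATV:DNP02 and 0.658 to 22.3 CPM on day 1, and the groups overlapped widely. The call was lost with edgeR (1.73, adjusted p = 0.263) and DESeq2 (1.74, adjusted p = 0.348), and without any of ATV:DNP02 replicates 1 or 6 or DNL919 day 1 replicate 1 (2.46 to 2.63). Its parent Rpl39 rose by 1.22 ± 0.21 (adjusted p = 9.22e-06).

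Parents of copies that were not tested rose too. Rpl3 rose by 1.24 ± 0.17 (adjusted p = 7.9e-08) and Rpl10 by 1.47 ± 0.19 (2.07e-08). Rpl10l, Rpl9-ps1, Rpl36-ps4 and Rps12-ps3 had 0 counts in all 38 libraries. Rpl3l, a copy known from muscle, had 23 counts in 3 libraries, and Rpl7a-ps5 had 5 counts. Rpl24, a 60S protein that is no copy, had 25 counts in 14 libraries. Of the 50-base words of its transcript 81.7% also occur in another gene, and 69.4% in Gm28037, which is not a row of the table.

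Against Vehicle, the second control of day 1, 79 members rose and 2 fell (all genes: 19.0% rose and 14.4% fell), with a median log2 fold change of 1.35. Among the 5 smallest adjusted p of rising members were those of Rps2 (2.21 ± 0.20), Rpsa (2.09 ± 0.19), Rps27a (2.01 ± 0.19) and Rplp0 (1.61 ± 0.16), from 2.79e-11 to 1.17e-10. Rps27rt and Rps27 were again the 2 that fell (-1.30 and -0.50, adjusted p = 0.000553 and 0.0404). Rpl39l (2.54, adjusted p = 0.0698), Rpl9-ps6 (0.59, 0.0668), Rpl27-ps3 and Rpl13a-ps1 did not pass here. The fall of Rps27 lost its call without any 1 of 7 libraries (Vehicle replicates 1, 3 and 5, DNL919 day 1 replicates 1, 4, 5 and 7), which left 1 fallen member. The 2 comparisons share the DNL919 libraries.

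ATV:DNP02 against Vehicle called 0 members with limma-voom, edgeR or DESeq2. Of all genes it called 0 with limma-voom (0%), 0 with edgeR and 1 with DESeq2. No member had an unadjusted p under 0.05. The member median was 0.09, with 63 members higher in ATV:DNP02 and 22 lower.

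From day 1 to day 4 the set came down part of the way. In DNL919 day 4 against day 1, 62 members fell (all genes: 18.1%) and 3 rose (13.8%), with a median log2 difference of -0.80. All 62 were among the 80 that had risen on day 1, and the remaining 18 of those did not pass. Both comparisons use the DNL919 day 1 libraries, on opposite sides, so this overlap is no independent support. Among the 5 falls with the smallest adjusted p were those of Rps2 (-1.41 ± 0.17), Rpl12 (-1.44 ± 0.17), Rpl5 (-1.34 ± 0.17) and Rps16 (-1.68 ± 0.21), from 9.08e-09 to 3.34e-08. Rpl5 was below day 1 in every day 4 library, at 63.8 to 106 CPM. The 3 that rose were Rps27, Rps27rt and Rpl13a-ps1 (0.87 ± 0.26, adjusted p = 0.00785).

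Against ATV:DNP02, 20 members were still higher on day 4 (all genes: 1.58%) and 19 on day 7 (1.30%), and 0 were lower on either day. The direction was broader than the calls: 82 of 85 log2 fold changes were above 0 on day 4 and 83 on day 7, with medians of 0.53 and 0.49 (all genes 0.03 and 0.04). Unadjusted p lay under 0.05 for 70 members on day 4 and 56 on day 7 (the share over all genes is not given here). Both days share the ATV:DNP02 libraries, and 16 members were called on both.

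Among the 5 smallest adjusted p on day 4 were those of Rps18 (0.84 ± 0.19, adjusted p = 0.00683), Rps9 (0.59 ± 0.13, 0.00683), Rpl37a (0.81 ± 0.18, 0.00698) and Rpl36 (0.78 ± 0.17, 0.00711). On day 7 they included those of Rpl19 (0.94 ± 0.19, adjusted p = 0.00368), Rps2 (0.84 ± 0.18, 0.00932), Rpl13 (0.61 ± 0.14, 0.0118) and Rpl35 (0.88 ± 0.20, 0.012). The day 7 libraries of Rpl35 (91.6 to 171 CPM) all lay above those of ATV:DNP02 (54.8 to 77.5 CPM), which held for 1 of 85 members and for 0.250% of all tested genes.

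Members differed in how much of the day 1 level they kept. Rpl36 stood at 0.90 on day 1 and 0.78 on day 4 against ATV:DNP02, and Rpl11 at 0.65 and 0.53, with changes between the days of -0.11 and -0.12 that did not pass. Rpl22l1 went from 1.15 to -0.01, Rpl36al from 0.75 to -0.04 and Rpl7l1 from 0.62 to 0.05, and all 3 fell between the days (adjusted p = 8.41e-06, 0.00567 and 0.00942). Of the other like copies, Rps27rt measured 0.64, Rpl39l 0.43 and Rps27l 0.245 on day 4. None of the 6 tested like copies was called against ATV:DNP02 on day 4 or day 7. Of all 85 members, 65 on day 4 and 66 on day 7 were not called either. Differences between members or classes were not tested.

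The number of calls on the later days was less firm than the direction. With sample quality weights 56 and 47 members rose on days 4 and 7, and with males only 0 and 0. Of all genes 416 and 327 rose with the weights, 1 and 0 with males only, and 177 and 146 in the main fit. On day 4, leaving out 1 library gave 4 members without DNL919 day 4 replicate 8, 9 without ATV:DNP02 replicate 1, 11 without DNL919 day 4 replicate 4 or 5, 12 without ATV:DNP02 replicate 3 or 7 and 13 without DNL919 day 1 replicate 2. On day 7 it gave 7 without ATV:DNP02 replicate 1 or DNL919 day 7 replicates 1 or 3, 9 to 11 without ATV:DNP02 replicates 2, 3, 4, 5 or 7, DNL919 day 7 replicates 6 or 7 or DNL919 day 1 replicate 2, and 12 without ATV:DNP02 replicate 6 or DNL919 day 1 replicate 3. Without the libraries high in neutrophil markers the counts were 25 on day 4 (DNL919 day 4 replicate 6 left out) and 11 on day 7 (DNL919 day 7 replicate 7 left out), and the medians 0.54 and 0.46.

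DNL919 day 7 against day 4 called 0 members with limma-voom, edgeR or DESeq2, with 0 members at an unadjusted p under 0.05 and a median of -0.04. Of all genes 0 were called with limma-voom (0%), 0 with edgeR and 1 with DESeq2.

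Mitochondrial ribosomal protein genes, which encode the separate ribosome of mitochondria, were set beside them. On DNL919 day 1, rises were called for 59 of 75 tested genes and falls for 0 (median 0.87), against 20.8 and 15.0% of all genes. On days 4 and 7 their medians were 0.03 and 0.02 and 0 of 75 were called, with 4 and 3 at an unadjusted p under 0.05 and 41 and 40 above 0. The cytosolic medians on those days were 0.60 and 0.53 over the 40S proteins and 0.51 and 0.49 over the 60S proteins. The difference between the sets was not tested.

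**Figure D4:**
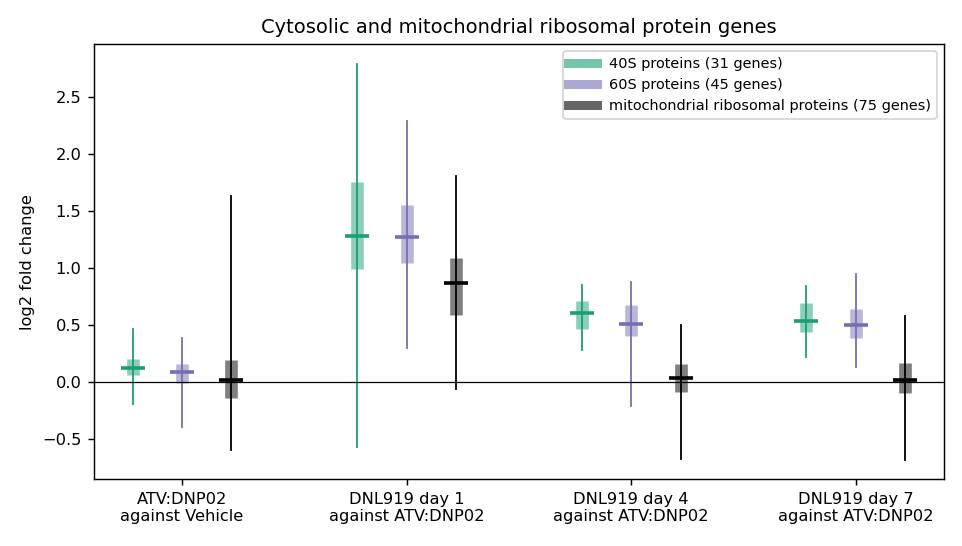
Log2 fold changes of 31 proteins of the 40S subunit, 45 of the 60S subunit and 75 mitochondrial ribosomal protein genes in 4 comparisons; lines span the lowest to highest gene, thick bars the lower to the upper quartile and dashes the median. On day 4 and day 7 the cytosolic medians lie at 0.49 to 0.60 and the mitochondrial ones at 0.02 to 0.03; the 3 DNL919 comparisons share the ATV:DNP02 libraries.

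In females (batches 1 and 2) 79 members rose and 0 fell on day 1 against ATV:DNP02, and in males (batches 3 and 4) 60 rose and 2 fell, with medians of 1.43 and 1.00, in 1 fit with sex-specific groups. The shares over all genes in that fit are not given here. In separate fits on each sex alone, 2003 of 11185 tested genes rose in females and 599 of 11188 in males. In the fit on males alone 39 members rose. Fewer genes of any kind were thus called in males. The difference in the effect, males minus females, was called for 0 members and 0 of all genes (0%) with limma-voom and with edgeR. Unadjusted p lay under 0.05 for 3 of the 85 members with limma-voom and 1 with edgeR. The members share the libraries and are no replicates, so these counts cannot be set against a chance rate. The median difference was -0.41, with 83 of 85 members below 0 (all genes 0.07). DNL919 day 1 replicate 5, the library with the lowest share, is a male library. Fitted on single batches the median was 1.49, 1.35, 0.96 and 1.12 in batches 1 to 4.

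Members with low levels in Vehicle, whose libraries are not in the comparison, rose more on day 1 than those with high levels. Across the 85 tested members Spearman's rho between the mean CPM per kb of gene model in Vehicle and the log2 fold change on day 1 against ATV:DNP02 was -0.54 (-0.56 with CPM not divided by length). Over the 76 members that are neither like copies nor named as pseudogenes it was -0.56 (-0.71 with CPM not divided by length). Across all 85 Pearson's r with log2 CPM per kb was -0.57. With the members divided by level into 4 classes of like size, the median log2 fold changes were 1.58, 1.31, 1.19 and 0.90 from the lowest (22 genes) to the highest (21 genes). The genes share the libraries and are no replicates. The Spearman correlation between the day 1 change and the percent of 50-base words found in another gene's transcript was 0.10 over the 85 members and 0.22 over the 76, and 34 of the 92 members shared over 50% of their words (median 41.0%).

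**Figure D5:**
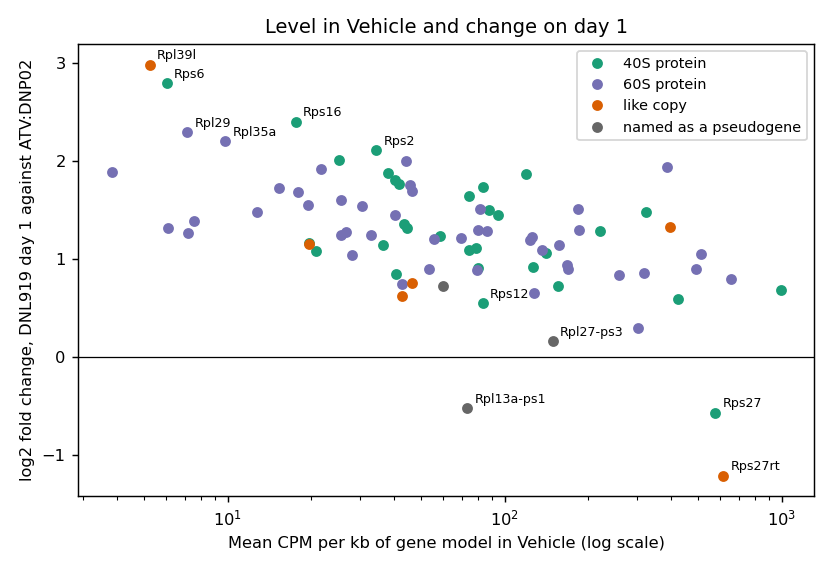
Log2 fold change on DNL919 day 1 against ATV:DNP02 and mean CPM per kb in Vehicle (log axis) of the 85 tested members, coloured by class, with the named extremes labelled. Rps6 and Rpl29 lie high at low levels, and Rps27 and Rps27rt lie below 0 at high levels; rho is -0.54.

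Of 3 ribosomal proteins whose symbols fall outside the rule, 2 passed the low-count filter, Fau and Rack1. The difference between these 2 was not tested. Fau, a fusion of a ubiquitin-like protein with a 40S protein, rose on day 1 (1.03 ± 0.15, adjusted p = 6.39e-07), day 4 (0.73 ± 0.16, 0.00568) and day 7 (0.70 ± 0.16, 0.0116). The scaffold protein Rack1, listed by its older symbol Gnb2l1, rose on day 1 (1.601 ± 0.18, adjusted p = 7.01e-10) and measured 0.24 on day 4 (adjusted p = 0.662).

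Of 15 other mRNAs with a TOP tract, 9 rose and 0 fell on day 1 (median 0.64), where 20.8% of all genes rose and 15.0% fell. Among them were the elongation factor subunits Eef1g (2.09 ± 0.22, adjusted p = 2.36e-10), Eef1b2 (1.38 ± 0.16, 2.12e-09) and the growth-related genes Tpt1 (1.38 ± 0.15, 8.59e-10) and Npm1 (1.48 ± 0.17, 1.53e-09). On days 4 and 7 only Eif3f, a subunit of an initiation factor, was called (0.84 ± 0.19 and 0.79 ± 0.19, adjusted p = 0.00994 and 0.0241), and it had not passed on day 1 (0.34, adjusted p = 0.171).

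Of 7 genes for chaperones or assembly factors that handle single ribosomal proteins, 5 rose on day 1 and 0 fell (median 0.95; 20.8 and 15.0% of all genes). Bccip, a chaperone of Rpl23, rose by 1.64 ± 0.20 (adjusted p = 7.18e-09), Grwd1, a chaperone of Rpl3, by 2.19 ± 0.44 (0.000109), and Ltv1, a 40S assembly factor, by 1.35 ± 0.30 (0.00041). None of the 7 was called on day 4 or 7, with 1 at an unadjusted p under 0.05 on each day.

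Of 12 tested genes of the mTORC1 pathway 3 rose and 3 fell on day 1 (median -0.17), near the shares of all genes (20.8 and 15.0%). Rheb, the activator of mTORC1 (0.86 ± 0.14, adjusted p = 2.37e-06), the translation repressor Eif4ebp1 (0.89 ± 0.22, 0.00133) and Myc (1.02 ± 0.28, 0.00399) rose, while Rptor, an mTORC1 subunit (-1.11 ± 0.28, 0.00134), Tsc1 (-1.16 ± 0.41, 0.0224) and the kinase gene Rps6kb1 (-0.49 ± 0.19, 0.0449) fell. Rps6kb1 was the 1 called among 7 tested genes of Rps6 kinases. Of 6 genes around the 5S particle and Mdm2, Cdkn1a, a p53 target that inhibits the cell cycle (2.10 ± 0.27, adjusted p = 2.84e-08), and the assembly factors Rrs1 (3.74 ± 0.72, 4.63e-05) and Brix1 (1.01 ± 0.22, 0.00031) rose on day 1. Mdm2 (-0.26, adjusted p = 0.357) and Trp53 (0.42, 0.0653) did not pass. Cdkn1a alone of the 6 was called on day 4 (1.56 ± 0.28, adjusted p = 0.000613).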

How the data were processed

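RNA of sorted CD11b-positive microglia was sequenced after a 3′-biased cDNA kit (SMARTSeq v4 3′ DE). Per the submitters' notes the authors aligned reads with STAR and counted them with featureCounts (Subread 1.6.2) on GRCm38.p6; how multi-mapping reads and duplicates were handled is not given in the sources used here. The deposited counts are raw counts per gene, rounded to 2 significant digits from 100 upward. The deposited normalized signal was not used. The scaling factors (a ratio per library) listed by the authors served in 1 alternative.

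CPM was computed on total counts with TMM factors. Two-sided tests came from voom and limma 3.58.1 in R 4.3.3 (limma-voom), in a model of group and batch over the 38 libraries, once filterByExpr of edgeR 4.0.16 had removed low genes (minimum count 10, total 15, proportion 0.7). P-values were adjusted by Benjamini-Hochberg over all 11189 genes and called under 0.05. edgeR's quasi-likelihood test and DESeq2 1.42.0 were alternatives. The fits were tested on simulated data. P-values set each difference between groups against the spread between these libraries. Replicates are numbered by label order. Shared words and coding sequences came from GENCODE M21, in which 83 of 92 members had the same start and end.

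The members, gene lists and alternatives were chosen with earlier results of these data known. Named were the 6 largest and 6 smallest changes on day 1, members not passing there, like copies with their parents, stalk proteins, Rps6, Rpl5, Rpl11, Rpsa and Rps27a, and per later comparison all called members up to 10, otherwise the 5 with the smallest adjusted p in each direction; results of some genes so chosen are not reported here.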

Additional observations from a re-analysis of the deposited data

Results flagged for a closer look

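For the share of counts and each named member, 1 library lay far from the others of its group in 10 of 185 groups examined, where chance gives about 5%. The share of counts was low in ATV:DNP02 replicate 1 (1.26%, the others 1.53 to 1.63%). DNL919 day 1 replicate 5 was low for 3 members: Rpl11 (228 CPM, the others 491 to 697), Rpl36 (200 CPM, the others 398 to 531) and Rpl7 (91.3 CPM, the others 188 to 272). Rpl11 was also low in ATV:DNP02 replicate 1 (232 CPM) and DNL919 day 7 replicate 5 (218 CPM, the others 436 to 618). Rps12 was high in DNL919 day 4 replicate 4 (365 CPM, the others 184 to 259) and Rpl39l in DNL919 day 7 replicate 7 (14.3 CPM, the others 0 to 5.52). In Vehicle, Rpl35 was low in replicate 6 (42.4 CPM) and Rps6 high in replicate 4 (17.1 CPM). DNL919 day 1 replicate 5 held 6.24 M counts, and without it the member median on day 1 was at the upper end of the values given below.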

How the results depend on the processing

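No paired analysis was possible because the labels give the libraries no replicate numbers that would pair them. Settings tried in every comparison called 0 members in ATV:DNP02 against Vehicle and in DNL919 day 7 against day 4. On day 1 against ATV:DNP02, risen members numbered 39 with males only, 0 in batch 3 alone and 5 in batch 4 alone, where 2 libraries faced 2. Of all genes 599, 11 and 33 rose in these fits. The 2 fallen members became 0 with the noncoding share or log2 library size as covariate, 1 with females only, with males only, in batch 2 or with Rps27 and Rps27rt counted together (added after seeing the data), and 0 in batches 1, 3 and 4. Against Vehicle 45 rose with males only; fallen members numbered 1 with edgeR, with no batch term or with both Rps27 genes together, and 0 with either covariate or males only. On day 4, 4 rose with no low-count filter, 7 with no batch term, 35 with log2 library size, 56 with quality weights, 32 in a fit of the 2 groups and 0 in males; on day 7, 6 with no filter, 1 with no batch term, 9 with the noncoding share, 47 with quality weights and 0 in males. From day 1 to day 4, 17 fell in males. With no filter the median of all genes on day 1 moved to -0.43. Single-batch fits reversed Rpl36al (-0.0169, batch 3) and Rpl39l (-0.36, batch 4). Mean shares of protein-coding counts were 1.62% in Vehicle and 1.70% in ATV:DNP02. Leaving out each library gave 77 to 81 risen and 2 fallen on day 1 against ATV:DNP02 (medians 1.17 to 1.40), 74 to 80 and 1 to 2 against Vehicle (1.26 to 1.51), 4 to 30 risen on day 4 (0.45 to 0.59), 7 to 22 on day 7 (0.40 to 0.56), and 56 to 73 fallen and 2 to 4 risen from day 1 to day 4 (-0.98 to -0.72). Low counts limit Rpl39l, Rpl29 and Rps6 in the controls.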

Other observations

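Beside the members the table lists 253 pseudogene rows named after ribosomal proteins, of which 183 had a count. They took 0.07 to 0.31% of the counts of a library. The median share was 0.17% in ATV:DNP02, 0.19% on DNL919 day 1, 0.22% on day 4 and 0.21% on day 7, with overlapping groups. Where a row was named after a member it could hold much of the signal: the pseudogene rows of Rps19 held 25854 counts beside 64850 on Rps19 itself, and 1 row of Rpl10a held 15800 beside 3498. Rows that could be matched by name to a member were added to it, which did not cover all of the 253 rows. With them, 79 members rose on day 1 against ATV:DNP02 (median 1.17), 16 on day 4 and 14 on day 7. No row was matched to Rpsa, although its transcript shares more sequence with Rpsa-ps10 than with any other gene. Rpsa was therefore not adjusted. Copies not named after a ribosomal protein were not added for any member.

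Of the counts on a copy and its parent together, Rpl36al took 37.9 to 52.2% beside Rpl36a in ATV:DNP02 and 26.8 to 43.2% on DNL919 day 1, with similar shares on day 7 (27.8 to 43.8%). Rpl22l1 took 27.0 to 44.0% beside Rpl22 in ATV:DNP02, 30.7 to 41.2% on day 1 and 17.8 to 30.8% on day 4. These shares overlap between the groups and were not tested.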
